A study of Mus musculus with 4 samples.

Results

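Aquaporins are the channel proteins through which water, and for some members glycerol and other small solutes, crosses cell membranes. The set described here is every probe set whose platform annotation gives the symbol Aqp1, Aqp2, Aqp3, Aqp4, Aqp5, Aqp6, Aqp7, Aqp8, Aqp9 or Aqp11. These 10 genes had 22 probe sets among the 45101 on the array, and 10 of the 18194 genes tested. They were chosen by name and not by their values. The cells came from kidneys of chimeric mouse embryos on embryonic day 15.5, made by placing 3 to 5 embryonic stem cells that carried green fluorescent protein (GFP) and lacked the transferrin receptor gene Tfrc into blastocysts of wildtype mice. Kidneys were digested with collagenase and trypsin, and sorting parted GFP-positive donor cells, labelled Tfrc-null, from GFP-negative host cells, labelled wildtype. Each group was profiled on 2 Affymetrix mouse arrays, which the labels call biological replicates without naming the animals. Which part of Tfrc was deleted, and the strain and clone of the stem cells, are not given in the sources used here. No array holds donor cells with Tfrc intact, so the genotype and other traits by which the donor line differs from the host cannot be told apart. In sorted pools such as these, fewer cells of a type and less RNA per cell cannot be told apart either.

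Aquaporins sit in the membrane as tetramers in which every subunit has a pore of its own. Aqp1, Aqp2, Aqp4, Aqp5, Aqp6 and Aqp8 belong to the water channel branch, Aqp3, Aqp7 and Aqp9 to the aquaglyceroporins that also pass glycerol, and Aqp11 to a divergent branch. In the mature kidney each has its place. Aqp1 returns water from the proximal tubule and the thin descending limb, Aqp7 and Aqp11 lie in the proximal tubule, Aqp2, Aqp3 and Aqp4 carry water across the principal cells of the collecting duct, and Aqp6 lies in vesicles of its intercalated cells. Aqp5, Aqp8 and Aqp9 are best known from glands, the digestive tract, the liver and leukocytes.

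The values are probe set intensities from RMA on a linear scale, on which low signals are compressed. The highest of 27 Bacillus subtilis control probe sets served as the control level of an array, 7.18 and 9.08 in the wildtype pair and 7.40 and 7.77 in the pair labelled Tfrc-null. Array medians were 17.5 to 19.3. Signal of Tfrc itself, the gene the donor cells should lack, had a higher mean in the labelled Tfrc-null group in 5 of 6 probe sets. Over all genes tested, 42.4% had a lower mean there. Of the Tfrc probe sets only 1452661_at and 1422967_a_at lay higher without overlap, by 0.47 and 1.42 on the log2 scale. The probe set with a lower mean lay no higher than the control level on any array. The group is therefore called by its label throughout and each direction given rests on that label. All 14 proximal tubule genes and all 24 ureteric bud and collecting duct genes measured lay above the control level on both arrays of at least 1 group. So did all 16 endothelial, 15 stromal and 9 glial and nerve genes measured, so passing this low level does not single out kidney cells. The arrays numbered 2 in both groups had a higher 3'/5' signal ratio of beta-actin, 6.49 and 7.21, than the arrays numbered 1, 5.51 and 5.89.

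Aquaporin signals were mostly low, and a single channel, Aqp4, stood far apart between the groups. Of the 10 genes, with the brightest probe set standing for each, 7 lay above the control level on 4 arrays, Aqp4 and Aqp7 on 3, and Aqp8 on 0. The share of all genes above the control level is not given here, and that level lay well under the array medians. The count is therefore not read as many or few. Means were lower on the labelled Tfrc-null arrays for 9 of 10 genes, against 42.4% of all genes tested. The exception was Aqp7, and the 9 include Aqp8, which had no value above the control level; without it the count was 8 of 9. Both labelled Tfrc-null arrays lay below both wildtype arrays for 4 of 10, namely Aqp1, Aqp3, Aqp4 and Aqp9, where 14.3% of all genes did. Neither count is a test, and the 4 depended on the probe set used, with 2 of 10 separated when all probe sets of a gene were averaged. The median log2 difference was -0.29 over the 10 genes, -0.30 without Aqp8, and 0.04 over all genes. None of the 10 passed an adjusted p of 0.05 (limma, Benjamini-Hochberg over all genes), nor did any of the 18194 genes, 0%. At an unadjusted p under 0.05 stood 1 of the 10, Aqp4, beside 8.02% of all genes. At least a 2-fold lower value without overlap was seen for Aqp4 alone among the 10 and for 1.51% of all genes, and at least a 2-fold higher value without overlap for 0 of the 10 and 1.15% of all genes.

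**Figure D1:**
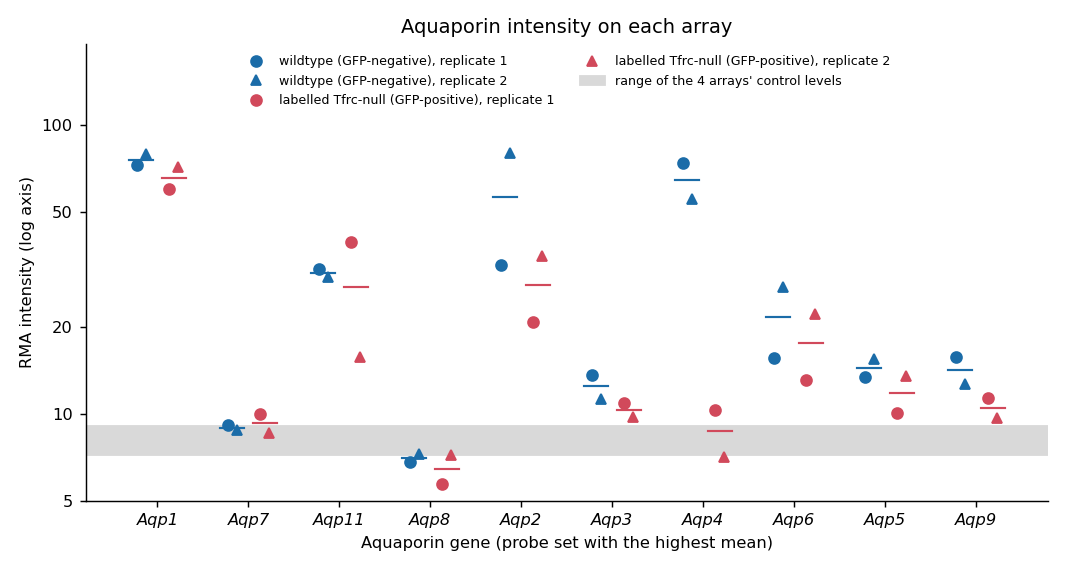
RMA intensity (log axis) of the 10 aquaporin genes on each of the 4 arrays, with circles for replicate 1, triangles for replicate 2, lines for the mean of each group and a grey band for the range of the control levels, 7.18 to 9.08. Aqp4 lies at 73.8 and 55.1 on the wildtype arrays and at 10.3 and 7.10 in the pair labelled Tfrc-null, while Aqp1 lies between 59.7 and 79.0 and Aqp8 lies at or below 7.24.

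Of the channels of the proximal nephron, Aqp1 had a clear signal that differed little between the groups. Its only probe set (1416203_at) read 72.3 and 78.95 in the wildtype pair and 59.7 and 71.2 on the labelled Tfrc-null arrays, means of 75.6 ± 4.67 and 65.5 ± 8.16 (SD, n = 2 each). The groups did not overlap, but the gap between them, 71.2 against 72.3, was smaller than the gap between replicates. On the log2 scale Aqp1 differed by -0.21 (SE 0.20, limma adjusted p = 0.912). Leaving out each array in turn gave -0.34 to -0.09. Aqp1 is also made by red cells and by endothelium, so markers of these cells are given beside it. Over all genes 42.4% had lower means on the labelled Tfrc-null arrays and 14.3% lay lower without overlap. Of 16 endothelial genes 16 had lower means on the labelled Tfrc-null arrays and 10 did not overlap (median -0.80, and -0.40 without wildtype replicate 1), their summed intensity being 4940 to 5752 on wildtype and 3201 to 3909 on labelled Tfrc-null arrays. Of 13 erythroid genes measured 12 had lower means and 11 did not overlap (median -0.81, and -0.36 on the log2(value + 16) scale), with sums of 1641 to 4463 against 251.0 to 287.3. Of the 11, 5 were also at least 2-fold lower, beside 1.51% of all genes. Epb42 and Rhag, also among the 11, lay no higher than the control level on 4 arrays. Proximal tubule genes, where Aqp1 acts in the mature nephron, had lower means in 11 of 14 measured and lay lower without overlap in 5 (median -0.13), with sums of 2802 to 3510 against 2674 to 2897. Their members with the smallest p were Slc5a12, Cdh6 and Spp2, at -0.88, -0.65 and -0.60, and 0 of the 14 passed. The proximal tubule median had no stable sign, at -0.45 and 0.06 without wildtype replicates 1 and 2 and at -0.32 and 0.03 without labelled Tfrc-null replicates 1 and 2. The part of each cell type in the Aqp1 signal was not tested.

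The Aqp1 promoter is shown because Aqp1, with Aqp2, was 1 of 2 channels above the array median on all 4 arrays. The RefSeq window holds 250 bases before and 50 after the annotated start (GRCm38.p6, chr6:55336049-55336348, plus strand), and spans the upstream flank and the first bases of the transcript. Capitals mark matches, on either strand, to the ETS core AGGAAG and the GC box GGGCGG, which 35.4% and 35.7% of the 32851 promoters in the RefSeq table hold.
Aqp1: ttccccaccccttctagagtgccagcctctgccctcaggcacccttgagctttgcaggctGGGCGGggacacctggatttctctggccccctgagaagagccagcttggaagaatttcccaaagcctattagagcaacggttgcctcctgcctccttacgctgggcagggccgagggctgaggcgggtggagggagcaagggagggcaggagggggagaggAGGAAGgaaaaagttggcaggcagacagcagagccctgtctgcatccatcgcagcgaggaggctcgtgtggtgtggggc
No match to TATAAA, to the GATA motif AGATAA or to the cAMP response element core TGACGT was found in this window, on either strand.

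Aqp11, an intracellular channel whose loss leads to cystic kidneys in mice, had its only signal above the control level in probe set 1429254_at. It read 31.7 and 29.6 in the wildtype pair and 39.2 and 15.7 on the labelled Tfrc-null arrays. The wildtype values lay between the labelled Tfrc-null values, which were the highest and the lowest of the 4. This gave a log2 difference of -0.30 (SE 0.44, limma adjusted p = 0.975). It was 0.36 when labelled Tfrc-null replicate 2 was left out and -0.96 when replicate 1 of that group was, so no direction can be given. The other 2 Aqp11 probe sets lay no higher than the control level on 4 arrays, with intensities of 5.47 to 6.94.

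Aqp7, an aquaglyceroporin of the proximal straight tubule and of fat cells, was close to the control level. Probe set 1418848_at read 9.12 and 8.75 in the wildtype pair and 9.94 and 8.60 on the labelled Tfrc-null arrays, and the second wildtype value lay below its array's control level. The groups overlapped, with a log2 difference of 0.05 (SE 0.19) that did not pass the threshold in limma. The second probe set, 1418849_x_at, lay no higher than the control level on all 4 arrays. Adipocyte markers gave little signal of fat: Adipoq, Cidec, Lep and Plin4, 4 of the 6 measured, lay at or below the control level throughout, and Fabp4, which endothelium also makes, and Lpl made up most of a summed intensity of 3535 to 4653 on wildtype and 2155 to 2974 on labelled Tfrc-null arrays. Of 8 genes of glycerol metabolism measured, 5 had lower and 3 higher means (median -0.10, and -0.14 to 0.05 with each array left out), and 0 passed. Aqp8, a channel of the digestive tract, liver and testis, read 6.79 and 7.24 in the wildtype pair and 5.70 and 7.203 on the labelled Tfrc-null arrays, each at or below its control level. Its position enters the counts and the median over the 10 genes, but no difference is read from values at this level.

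By the brightest probe set, the collecting duct channels Aqp4 and then Aqp2 had the largest differences of the family, but Aqp3 did not. The rank of Aqp2 rested on the arrays kept. Without wildtype replicate 2, Aqp2 differed by -0.27 and Aqp9 by -0.59. Aqp4, the water channel of the basolateral membrane of principal cells and of astrocytes, read 73.8 and 55.1 in the wildtype pair and 10.3 and 7.10 in the pair labelled Tfrc-null (probe set 1434449_at). Both labelled Tfrc-null values lay far below both wildtype values, and the second lay below its control level of 7.77. Means were 64.5 ± 13.2 and 8.70 ± 2.26 (SD, n = 2 each). The log2 difference of -2.90 (SE 0.27) did not pass over all genes (limma adjusted p = 0.122), and leaving out each array in turn gave -3.17 to -2.63. Only 1 of the 2 labelled Tfrc-null arrays measured the probe set above its control level, and with that array alone the difference was -2.63, so its size is known less well than its direction. The other 2 Aqp4 probe sets did not carry this difference. Probe set 1425382_a_at read 10.1 and 8.18 on wildtype and 11.4 and 6.40 on labelled Tfrc-null arrays, above the control level on 1 array of each group. Probe set 1447745_at lay between 5.06 and 6.16, no higher than the control level on 4 arrays. With the mean of all 3 probe sets the log2 difference was -1.07.

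Aqp2 is the vasopressin-regulated channel of the apical membrane of principal cells, the step that sets how much water the collecting duct takes back. Its only probe set (1418903_at) read 32.6 and 79.98 in the wildtype pair and 20.7 and 35.2 on the labelled Tfrc-null arrays. The groups overlapped, since the second labelled Tfrc-null array lay above the first wildtype array. In both groups the array numbered 2, with the higher actin ratio, had the higher value; the part of RNA quality in this was not tested. Means were 56.3 ± 33.5 and 27.96 ± 10.3 (SD, n = 2 each), which put the log2 difference at -0.92 (SE 0.50, limma adjusted p = 0.762). It was -0.27 without wildtype replicate 2 and -1.57 without wildtype replicate 1, so its size rested on which wildtype array was kept.

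Aqp3, the aquaglyceroporin of the basolateral membrane, was weak. Probe set 1450460_at read 13.6 and 11.2 in the wildtype pair and 10.9 and 9.71 on the labelled Tfrc-null arrays, all 4 below the array medians. The groups did not overlap, with a log2 difference of -0.27 (SE 0.20, limma adjusted p = 0.875). Its 3 further probe sets lay near the control level, and they differed in direction. 1422007_at read 5.89 and 8.22 against 8.69 and 9.02, higher without overlap on the labelled Tfrc-null arrays by 0.35 on the log2 scale, 1447727_at differed by 0.23 and 1422008_a_at by -0.21. The mean of the 4 probe sets differed by 0.03, so the direction of Aqp3 turned with the way its probe sets were combined.

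The promoters of Aqp2 and Aqp3 are shown because both channels act in the same principal cells, while their windows hold different motifs. Capitals mark matches on either strand. The Aqp2 window (GRCm38.p6, chr15:99578806-99579105, plus strand) holds TGACGT, the core bound by CREB factors downstream of cAMP and present in 7.51% of promoters, then the GATA motif AGATAA (11.2%), both read on the opposite strand, and 3 matches to AGGAAG. The cAMP and GATA motifs begin 212 and 202 bases before the annotated start. The Aqp3 window (GRCm38.p6, chr4:41098134-41098433, minus strand) holds TATAAA, present in 13.6% of promoters, beginning 29 bases before the start, and 1 GC box.
Aqp2: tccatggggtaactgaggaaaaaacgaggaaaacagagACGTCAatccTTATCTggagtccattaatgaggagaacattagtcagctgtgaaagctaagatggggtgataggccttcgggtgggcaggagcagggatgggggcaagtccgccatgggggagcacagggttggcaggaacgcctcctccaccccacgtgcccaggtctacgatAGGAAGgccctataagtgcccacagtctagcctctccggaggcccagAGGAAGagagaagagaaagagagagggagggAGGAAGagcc
Aqp3: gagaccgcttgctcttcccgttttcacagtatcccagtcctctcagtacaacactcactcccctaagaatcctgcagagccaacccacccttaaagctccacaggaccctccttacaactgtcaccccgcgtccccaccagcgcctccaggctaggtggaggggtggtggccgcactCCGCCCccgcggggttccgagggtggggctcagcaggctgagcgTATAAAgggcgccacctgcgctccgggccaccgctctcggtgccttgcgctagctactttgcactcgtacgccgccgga
Windows of 9 of the 10 genes were searched, 11 in all, and Aqp4 was left out of this search. The Aqp2 window was the only one of the 11 with TGACGT, and AGATAA was found in it and in 1 of the 2 Aqp7 windows. A match is a run of letters and does not show that a factor binds there.

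Genes that mark the ureteric bud and collecting duct were lower beside these channels. Of 24 measured, 22 had lower means on the labelled Tfrc-null arrays, 14 lay lower without overlap and 7 were also at least 2-fold lower (median -0.67). Over all genes these shares were 42.4%, 14.3% and 1.51%. The list was drawn up with earlier results of these arrays known and is no independent evidence of direction. Its summed intensity was 9786 to 10484 on wildtype and 4438 to 5425 on labelled Tfrc-null arrays. Ret, the receptor of the growing bud tip, differed by -3.47, the ETS factor Ehf by -2.34 and the zinc finger factor Gata3 by -1.80, each with an adjusted p of 0.122 in limma. Among genes of the mature principal cell the sodium channel subunit Scnn1b read 64.8 and 66.9 against 27.4 and 40.4, and the vasopressin receptor gene Avpr2 read 12.9 and 13.1 against 10.6 and 8.90, both lower without overlap. Scnn1a, at 12.8 and 13.6 against 16.5 and 10.7, overlapped. The third subunit gene, Scnn1g, at 23.1 and 14.6 against 14.95 and 8.94, overlapped too.

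The machinery that moves Aqp2 to the membrane was, in the median, level between the groups. Of 25 genes of vasopressin signalling and Aqp2 trafficking, 10 had lower and 15 higher means, 8 lay lower and 2 higher without overlap (background 14.3% and 20.6%), and 0 passed. The median was 0.06, near the 0.04 of all genes, and -0.06 to 0.07 with each array left out. The members with the smallest p were the prostaglandin E receptor Ptger3, which opposes vasopressin, at 10.5 and 9.95 on wildtype against 17.6 and 21.6, the myelin and lymphocyte protein Mal, with a log2 difference of -1.08, and Stxbp2, a regulator of vesicle fusion, at -0.82. Most of these genes, such as Gnas and the protein kinase A subunits, act in nearly every cell type.

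Other tissues that make Aqp4 were checked by their markers. Of 9 glial and nerve genes measured, 4 had lower and 5 higher means (median 0.12, and -0.12 to 0.35 with each array left out), and their sum was 617.5 to 657.6 on wildtype and 509.6 to 552.8 on labelled Tfrc-null arrays. Without overlap 3 lay lower and 3 higher, against 14.3% and 20.6% of all genes, and 1 of the 3, Elavl4, was at least 2-fold lower (-1.16). Of 10 skeletal muscle genes, 1 had a lower mean, against 42.4% of all genes. Without overlap 2 lay higher and 0 lower, against 20.6% and 14.3%. Their median was 0.37, 0.13 on the log2(value + 16) scale and -0.09 without labelled Tfrc-null replicate 2. Sums were 212.1 to 227.2 against 285.2 to 395.4. Only 5 of the 10 lay above the control level on both arrays of at least 1 group, and Myf6 lay no higher than it on any array. The part of these tissues in the Aqp4 signal was not tested.

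**Figure D2:**
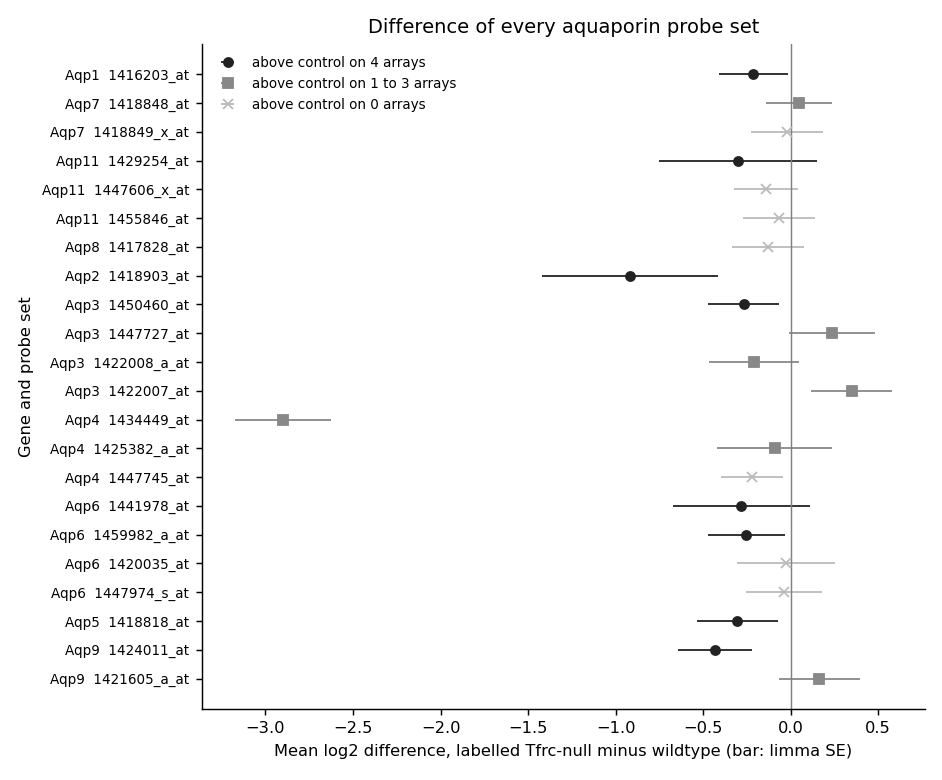
Mean log2 difference, labelled Tfrc-null minus wildtype, of all 22 aquaporin probe sets with the limma standard error as a bar; the symbol gives on how many arrays a probe set lay above the control level. Probe set 1434449_at of Aqp4 lies at -2.90, apart from the others, which lie between -0.92 (Aqp2) and 0.35 (an Aqp3 probe set).

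The intercalated cell channel Aqp6, which also conducts anions, had 2 of its 4 probe sets above the control level on all arrays. Probe set 1441978_at read 15.5 and 27.5 in the wildtype pair and 13.1 and 22.2 on the labelled Tfrc-null arrays. The groups overlapped, and as for Aqp2 the array numbered 2 was the higher in each. Its log2 difference of -0.28 (SE 0.39, limma adjusted p = 0.968) turned to 0.13 without wildtype replicate 2 and to 0.10 without labelled Tfrc-null replicate 1. Probe set 1459982_a_at read 12.2 and 16.2 against 11.5 and 12.1, without overlap and with a log2 difference of -0.25. The other 2 lay no higher than the control level on all 4 arrays. Of 11 markers of the intercalated cell measured, 8 lay above the control level on both arrays of at least 1 group, and the defining factor Foxi1 read 8.32 and 7.34 against 6.62 and 5.34, above the control level on 1 array. The 11 had lower means in 10 and no overlap in 5 lower and 1 higher, against 14.3% and 20.6% of all genes (median -0.23, and -0.50 without labelled Tfrc-null replicate 1), and 0 passed. The ammonia transporter Rhcg, also found in principal cells, differed by -0.91 and the bicarbonate exchanger Slc4a9 by -0.65.

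Aqp2, Aqp5 and Aqp6 lie next to each other on chromosome 15, in this order, and Aqp7 and Aqp3 are neighbours on chromosome 4, by the RefSeq gene table of GRCm38.p6. Aqp5, a water channel of salivary, lacrimal and airway glands, read 13.4 and 15.5 in the wildtype pair and 10.1 and 13.5 on the labelled Tfrc-null arrays (probe set 1418818_at). The groups overlapped by a small margin, 13.5 against 13.4, with a log2 difference of -0.30 (SE 0.23, limma adjusted p = 0.875). Each of the 4 values was below its array's median. The log2 differences across the trio were -0.92, -0.30 and -0.28, with standard errors of 0.50, 0.23 and 0.39, and the difference between neighbours was not tested. Of 10 markers of urothelium and gland epithelium, 8 had lower means, with 5 lower and 2 higher without overlap (median -0.31), against 14.3% and 20.6% of all genes. Krt23, Trp63 and Upk3a had the smallest p, at -2.49, -1.61 and -0.97. Their summed intensity was 241.0 to 243.7 on wildtype and 121.4 to 143.7 on labelled Tfrc-null arrays, and its part in the Aqp5 signal was not tested.

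Aqp9, an aquaglyceroporin through which liver cells take up glycerol and which neutrophils also carry, read 15.7 and 12.6 in the wildtype pair and 11.3 and 9.64 on the labelled Tfrc-null arrays (probe set 1424011_at). The labelled Tfrc-null values were the lower pair without overlap, 14.2 ± 2.12 against 10.5 ± 1.17 (SD, n = 2 each), with a log2 difference of -0.43 (SE 0.21, limma adjusted p = 0.724), and leaving out each array in turn gave -0.59 to -0.28. The second probe set, 1421605_a_at, differed by 0.16 and overlapped, at 10.1 and 7.30 against 9.21 and 10.05. Genes of neutrophil granules had lower means in 7 of 10 measured and higher means in 3 (median -1.18). Without overlap 6 lay lower, 5 of them at least 2-fold, and 1 higher, against 14.3%, 1.51% and 20.6% of all genes. Their summed intensity was 4526 to 7688 on wildtype and 182.0 to 630.5 on labelled Tfrc-null arrays, and most of it came from S100a8, which differed by -4.13, and S100a9, by -5.55. The smallest p belonged to Ltf, Ngp and S100a9, with log2 differences of -2.68 and -4.18 for the first pair, while Elane and Ctsg lay no higher than the control level on 4 arrays. Leukocyte and macrophage genes had higher means in 12 of 15, with 3 lower and 4 higher without overlap, beside 14.3% and 20.6% of all genes (median 0.22, and 0.01 without wildtype replicate 1, sums of 8443 to 10441 against 9749 to 10272). The 3 with lower means were Ptprc, Ctss and Lyz2, at -0.73, -0.64 and -0.72, and Ptprc had the smallest p of that list. Liver genes had higher means in 8 of 9 measured (median 0.20, and 0.08 to 0.42 with each array left out, sums of 350.2 to 889.2 against 525.8 to 547.5). The other 1 had a lower mean, where 42.4% of all genes did. Without overlap 1 lay higher and 0 lower, beside 20.6% and 14.3%. Only 6 of the 9 lay above the control level on both arrays of at least 1 group, and Apob lay no higher than it on any array. Aqp9 by its brightest probe set differed in the direction of most neutrophil genes, by less than their median. Its second probe set differed the other way, and the part of neutrophil genes in the Aqp9 signal was not tested.

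Set beside the lists of cell types, the aquaporin median of -0.29 was near those of the intercalated cell and urothelial lists and smaller in size than that of the ureteric bud. With all probe sets of a gene averaged, the aquaporin median was -0.16, against -0.23 for the intercalated cell and -0.29 for the urothelial list. Upk3a is a member of both the ureteric bud and the urothelial list. Loop of Henle and distal tubule genes had lower means in 11 of 13 measured, with 6 lower and 1 higher without overlap, beside 14.3% and 20.6% of all genes (median -0.55). The smallest p in this list belonged to Wfdc2, Bst1 and Wfdc15b, at -0.83, -1.12 and -1.04. Stromal and mesenchymal genes had higher means in 14 of 15 (median 0.69), where 42.4% of all genes had lower means. Without overlap 11 lay higher, 5 of them at least 2-fold, and 0 lower, against 20.6%, 1.15% and 14.3% of all genes. Dlk1, Lum and Tbx18, at 2.26, 1.49 and 1.46, had the smallest p of that list. Of the 16 lists, 0 had a member past the threshold.

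**Figure D3:**
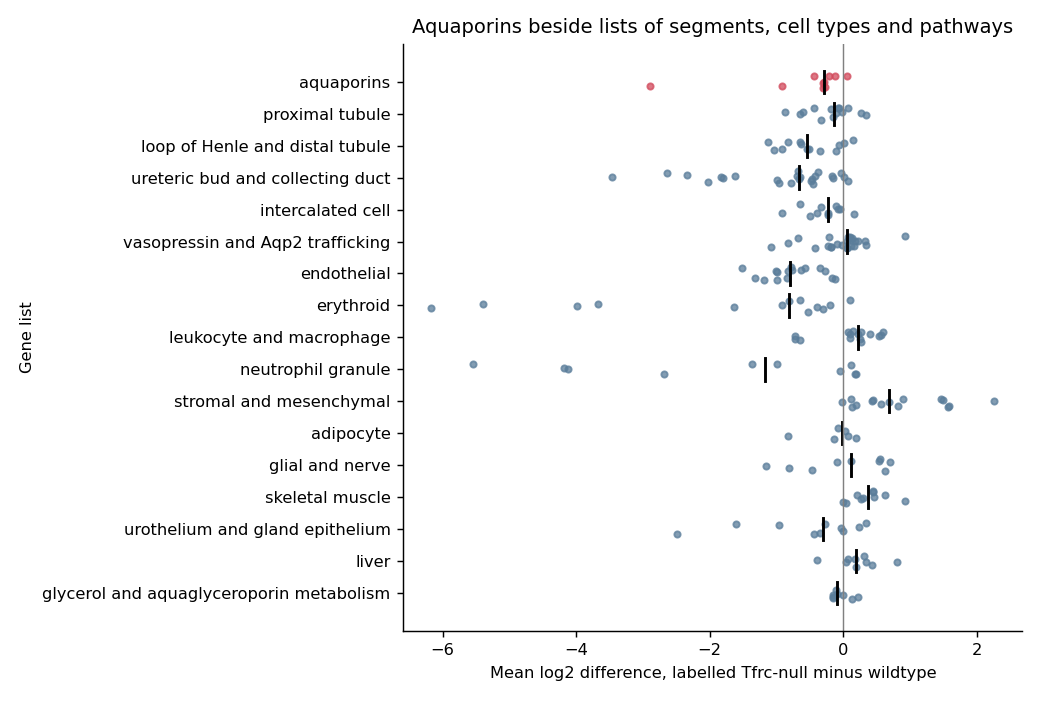
Mean log2 difference, labelled Tfrc-null minus wildtype, of each aquaporin gene (top row) and of each measured gene of 16 lists, with a black line at the median. The aquaporin median is -0.29, with Aqp4 at -2.90; ureteric bud genes lie mostly below 0 (median -0.67) and stromal genes mostly above 0 (median 0.69).

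The genes most like Aqp4 and Aqp2 over the 4 arrays were found by the root mean square distance between log2 values, each centred on its gene's mean. For Aqp4 these were Olfm4, a secreted glycoprotein gene, at a distance of 0.07, Mir1931 at 0.22 and the keratin gene Krt23 at 0.24. Olfm4 read 63.0 and 46.7 in the wildtype pair and 9.28 and 6.79 on the labelled Tfrc-null arrays, the same order of arrays as Aqp4. Krt23 read 74.9 and 70.6 against 15.2 and 11.0. For Aqp2 they were the glutathione transferase gene Gstt1 at 0.04, the ubiquitin-conjugating enzyme gene Ube2l6 at 0.06 and the galectin gene Lgals3 at 0.09. Gstt1 read 92.4 and 234.2 in the wildtype pair and 59.3 and 106.9 on the labelled Tfrc-null arrays, with the second wildtype array highest, as for Aqp2. A likeness over 4 arrays is a description, since many genes can take such a shape among 18194.

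**Figure D4:**
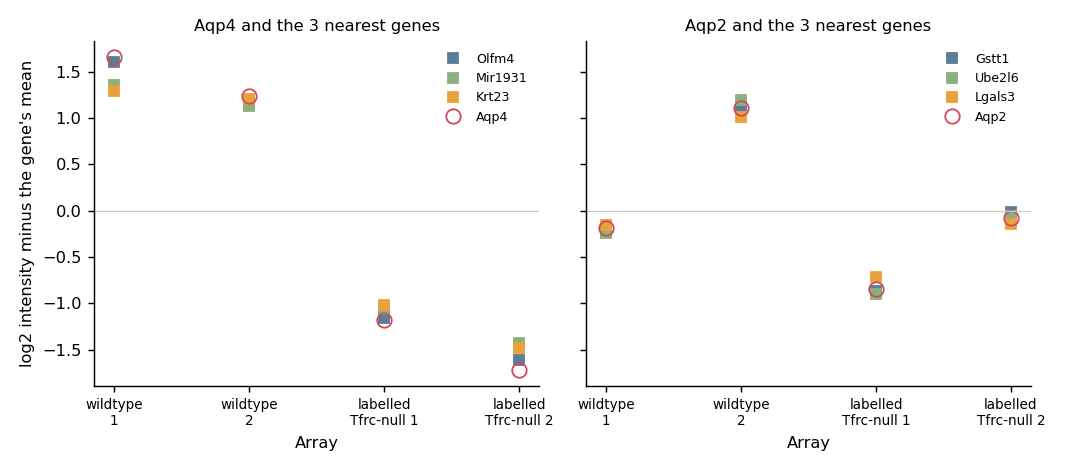
Log2 intensity minus the gene's mean over the 4 arrays for Aqp4 (left) and Aqp2 (right), as open circles, with the 3 nearest genes as squares. Aqp4 and its nearest genes separate the groups, whereas Aqp2 and its nearest genes are highest on the second wildtype array and overlap between the groups.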

How the data were processed

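Gene expression was measured in 4 samples, 2 wildtype and 2 labelled Tfrc-null, from 50 ng of total RNA each. The values deposited by the authors are linear-scale intensity per probe set, and RMA is the only tool in the submitters' processing notes; its settings are not given in the labels or the file. This method equalises arrays, so a shift shared by most genes would be lost. No normalization was added, and tests used log2 values. Symbols came from the platform annotation (34958 probe sets with 1 symbol, 932 with several, 9211 with none; the last 2 kinds did not enter the test per gene) and were updated by Entrez identifier through RefSeq (GRCm38.p6), which held 18033 of the genes. The brightest probe set, by its mean log2 over the arrays, stood for a gene. The test was limma 3.58.1 under R 4.3.3 (lmFit, eBayes, no block), with Benjamini-Hochberg adjustment over 18194 genes and, separately, over 45101 probe sets; standard errors of a gene's main probe set are from the gene-level fit. Methods were tested on simulated data. A log2 difference is labelled Tfrc-null minus wildtype, a fold is 2 to the power of its size, and group values are mean intensity ± SD. The smallest two-sided p of an exact permutation test in this design is 0.333. The p-values measure only the spread between these samples. Summed list levels add intensities of different probe sets and are compared only between arrays.

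The members, the 16 lists and the tests were chosen with earlier results of these data known. The text names every probe set of the members, up to 3 genes per list with the smallest p in the lists it details, and the 3 nearest genes of the 2 channels with the largest difference; Scnn1a, Scnn1b, Scnn1g, Avpr2, Gnas, Foxi1, Elavl4, S100a8, Ctss and Lyz2 were chosen after their values were seen. Alternatives were a replicate block, median centring, quantile normalization, averaged probe sets, a pseudocount of 16, a filter on dim genes, a prior trend and leaving out each array.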

Additional observations from a re-analysis of the deposited data

How the results depend on the processing

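Of the 9 channels given a difference, Aqp1, Aqp2, Aqp4, Aqp5 and Aqp9 kept their direction under all 11 alternatives. The replicate block, the prior trend and the filter on dim genes leave each difference as it is, so these could not turn a direction. For Aqp1, Aqp4 and Aqp9, whose groups did not overlap, neither the pseudocount nor leaving out an array could turn it. Averaging probe sets could not change Aqp1, Aqp2 and Aqp5, which have 1 probe set each. A kept direction is therefore not read as a measure of stability. Where no array was left out, none of the 9 passed the threshold. The limma adjusted p of Aqp4 was then between 0.0728 with median centring and 0.270 with averaged probe sets. Aqp3 turned to 0.026 with averaged probe sets. Leaving out each array gave -0.69 to 0.13 for Aqp6 (0.13 without wildtype replicate 2, 0.10 without labelled Tfrc-null replicate 1), -0.055 to 0.15 for Aqp7 (-0.055 without labelled Tfrc-null replicate 1) and -0.96 to 0.36 for Aqp11 (0.36 without labelled Tfrc-null replicate 2). Aqp4 differed by -1.07 with averaged probe sets and by -1.70 on the log2(value + 16) scale.

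The 9 of 10 lower means were 8 or 9 under each alternative. The 4 separated channels were 2 with averaged probe sets and 4 to 8 with an array left out, where a lone array separates more easily. The median difference of the 10 was -0.16 with averaged probe sets and -0.15 with the pseudocount. The alternatives for these counts and this median were chosen after seeing the data. With the array median in place of the control level, 2 and not 7 channels lay above it on 4 arrays, Aqp1 and Aqp2.

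Over all genes, 0 passed in the main fit, 2 with the replicate block, 2 with median centring, 2 with the prior trend and 1 with averaged probe sets; 0 probe sets passed under any of the 6 alternatives run at that level. The 484 genes at least 2-fold apart without overlap were 309 with averaged probe sets, 243 with the pseudocount and 600 to 919 with an array left out. Same-numbered arrays deviated together (correlation of deviations over genes 0.51), but with 2 pairs the labels' numbers do not establish pairing; with the replicate block Aqp4 had a standard error of 0.14 and an adjusted p of 0.0816. Of 144 list medians under alternatives, 118 moved by less than the spread between replicates. The replicate block leaves every list median as it is, so the 118 include medians that could not move. Median centring shifts all list medians by the same amount. The count is therefore not read as a measure of stability. The number of arrays limits the precision, and channels near the control level have little range left in which to fall.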

Other observations

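The array also names 2 members of the family outside the set described above. Aqp12, a channel known from the pancreas, read 8.003 and 10.01 in the wildtype pair and 9.26 and 10.5 on the labelled Tfrc-null arrays, just above the control level on each. Mip, the water channel of the eye lens, did not exceed the control level in either of its probe sets, between 5.34 and 7.005.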
